A study of Mus musculus with 26 samples.

Results

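The aminoacyl-tRNA synthetase genes were described as a family of 35 genes among the 18193 genes that the array annotation names. A gene belonged to it when its symbol followed the synthetase naming pattern of an amino acid letter and the ending ars, with Eprs, Farsa and Farsb included, and genes whose symbol ends in 2 formed the mitochondrial set. This gave 19 cytosolic and 16 mitochondrial genes. Where a gene had several probe sets, the one with the highest mean across the 26 arrays stood for it, out of 72 probe sets that carry a member's symbol alone. The synthetases for aspartate were not analysed here. No filter on low values was applied, so all 35 were tested.

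RNA came from the inguinal mammary gland, and the deposited values are log2 expression levels per probe set of an Affymetrix mouse array. CBA/CaH, an inbred mouse strain, and QSi5, an inbred strain bred for large litters, each gave 5 arrays from pregnancy day 12 and 3 from lactation day 9. Mice from the 14th generation of an Advanced Intercross Line (AIL), made by crossing CBA/CaH with QSi5, were sampled on day 9 of lactation. They carry the code AC (5 arrays) or AQ (5 arrays), whose meaning the labels do not give. No label names a treatment or an engineered allele, or gives the age of the animals. The labels describe each array as a mouse with its own code and mention no pooling, but do not state outright that each is a separate animal; p-values measure the spread between these arrays.

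Aminoacyl-tRNA synthetases join each amino acid to its tRNA and so supply the ribosome with charged tRNA. The cytosolic enzymes serve the translation of nuclear messages, including those of the milk proteins, and the mitochondrial enzymes serve the few respiratory chain subunits that are made inside mitochondria. Enzymes of class I and class II differ in the fold of the catalytic domain. Several cytosolic enzymes are held with the scaffold proteins Aimp1, Aimp2 and Eef1e1 in the multi-synthetase complex. Gars and Kars each encode the cytosolic and the mitochondrial form of their enzyme, and mitochondrial glutamine tRNA is charged with glutamate by Ears2 and then amidated, which is why these amino acids lack a mitochondrial gene of their own. Many cytosolic synthetase genes are known targets of the transcription factor ATF4, which binds the C/EBP-ATF response element when amino acids are short. In the lactating gland, milk protein synthesis in the secretory epithelium draws on this supply.

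Promoter sequences are shown for the 5 synthetase genes, among those reported here, that held the core of that element. Kars and Iars2 are also shown, which held a match to the NRF1 motif and had the largest stage differences of their sets in CBA/CaH. The sequences were taken from RefSeq (build GRCm38.p6) as promoters of 300 bases, 250 before and 50 after the start. Motif results are reported for 26 of the 35 genes (12 cytosolic and 14 mitochondrial). Cars, Hars, Lars, Nars, Rars, Vars, Wars, Hars2 and Pars2 were left out, so whether they hold a motif is not reported here. Synthetase promoters on 1 chromosome were dropped after the search, while the shares over all promoters were taken without that exclusion. The absence of these genes does not mean that RefSeq lacks them, and the shares of synthetase promoters below describe the 26 genes alone. The motifs searched on both strands were TGATGNAA, the core of the C/EBP-ATF response element, the E-box CACGTG, and the NRF1 motif. The core TGATGNAA was found in 5 of 12 cytosolic promoters (41.7%), in 0 of 14 mitochondrial promoters and in 3.97% of all 32851 promoters of this length. The NRF1 motif was found in 3 cytosolic promoters (Farsb, Kars and Tars) and 2 mitochondrial promoters (Iars2 and Mars2), against 4.6% of all promoters. The E-box was found in 4 and 1, against 7.15%. Among promoters of protein-coding genes the shares were 3.6% for the core, 6.38% for the NRF1 motif and 7.84% for the E-box. Capital letters mark every match to one of the 3 motifs, and neighbouring matches run together. The windows shown are Aars (chr8:111033592-111033891, plus strand), Gars (chr6:55037751-55038050, plus strand), Iars (chr13:49681880-49682179, plus strand), Tars (chr15:11399609-11399908, minus strand), Yars (chr4:129189653-129189952, plus strand), Kars (chr8:112011305-112011604, minus strand) and Iars2 (chr1:185329352-185329651, minus strand).
Aars: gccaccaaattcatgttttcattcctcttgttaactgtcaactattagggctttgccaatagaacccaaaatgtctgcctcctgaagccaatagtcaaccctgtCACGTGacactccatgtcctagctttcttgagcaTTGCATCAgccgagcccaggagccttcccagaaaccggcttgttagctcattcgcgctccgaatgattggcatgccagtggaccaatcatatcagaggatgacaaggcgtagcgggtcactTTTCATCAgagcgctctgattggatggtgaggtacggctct
Gars: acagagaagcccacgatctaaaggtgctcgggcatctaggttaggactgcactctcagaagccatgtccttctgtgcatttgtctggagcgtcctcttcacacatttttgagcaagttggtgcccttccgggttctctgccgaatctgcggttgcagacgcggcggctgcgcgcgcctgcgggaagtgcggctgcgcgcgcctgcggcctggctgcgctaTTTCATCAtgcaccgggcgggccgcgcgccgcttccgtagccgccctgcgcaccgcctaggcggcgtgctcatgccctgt
Iars: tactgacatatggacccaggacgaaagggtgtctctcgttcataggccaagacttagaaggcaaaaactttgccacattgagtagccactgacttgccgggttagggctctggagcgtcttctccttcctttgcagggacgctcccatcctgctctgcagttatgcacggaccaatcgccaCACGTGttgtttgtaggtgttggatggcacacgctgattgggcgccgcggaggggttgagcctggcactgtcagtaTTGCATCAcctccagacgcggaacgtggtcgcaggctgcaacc
Tars: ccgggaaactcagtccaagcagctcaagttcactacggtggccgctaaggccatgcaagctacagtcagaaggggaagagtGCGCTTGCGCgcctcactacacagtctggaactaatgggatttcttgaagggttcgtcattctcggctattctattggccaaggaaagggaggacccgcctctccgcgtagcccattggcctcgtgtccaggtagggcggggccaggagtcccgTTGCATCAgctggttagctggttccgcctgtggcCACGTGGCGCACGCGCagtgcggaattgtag
Yars: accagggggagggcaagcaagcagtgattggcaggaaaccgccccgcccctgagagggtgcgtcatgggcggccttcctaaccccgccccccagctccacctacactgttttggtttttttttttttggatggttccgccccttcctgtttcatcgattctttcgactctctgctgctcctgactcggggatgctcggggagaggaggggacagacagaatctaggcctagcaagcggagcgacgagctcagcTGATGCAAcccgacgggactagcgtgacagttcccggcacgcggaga
Kars: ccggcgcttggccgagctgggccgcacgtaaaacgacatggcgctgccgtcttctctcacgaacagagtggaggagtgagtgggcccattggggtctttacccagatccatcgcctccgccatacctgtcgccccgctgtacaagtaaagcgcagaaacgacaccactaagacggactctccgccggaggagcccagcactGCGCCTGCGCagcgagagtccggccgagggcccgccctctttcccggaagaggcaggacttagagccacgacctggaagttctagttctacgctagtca
Iars2: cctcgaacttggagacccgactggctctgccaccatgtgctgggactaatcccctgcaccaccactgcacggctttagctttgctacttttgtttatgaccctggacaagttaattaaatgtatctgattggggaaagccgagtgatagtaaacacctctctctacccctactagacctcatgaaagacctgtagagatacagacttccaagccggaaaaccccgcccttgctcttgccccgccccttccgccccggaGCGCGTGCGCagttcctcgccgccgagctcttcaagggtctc
Positions count from the start base as 0. The core began at -112 and 9 in Aars, -30 in Gars, 7 in Iars, -15 in Tars and 3 in Yars. The NRF1 match began at -49 in Kars and 8 in Iars2. A match is a description of the letters in the window.

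Levels on the arrays differed between stages in more than single genes. The 90th percentile of an array lay between 8.52 and 8.93 in pregnancy, between 7.96 and 8.12 in the lactating parental strains and between 8.28 and 8.48 in the AIL, and the median lay between 5.00 and 5.30. The arrays thus do not share 1 distribution. Of 8 secretory epithelium markers, 2 were higher and 2 lower at lactation in CBA/CaH and 3 and 2 in QSi5. Wap, a milk protein gene of the secretory epithelium, was between 10.75 and 13.70 on the pregnancy arrays and between 15.00 and 15.13 on the lactation arrays. The luminal keratins went the other way, with group means of 12.05 and 12.64 (CBA/CaH and QSi5) at pregnancy and 9.65 and 9.84 at lactation for Krt18, and 12.63 and 12.96 against 10.56 and 9.66 for Krt8. Endothelial and fibroblast markers were lower at lactation, 4 of 5 called in each list and each strain, with summed levels of 27.7 to 28.6 against 30.6 to 38.7 (endothelium) and 37.5 to 41.5 against 43.4 to 54.9 (fibroblast). Among white adipocyte markers, 3 of 4 were lower in CBA/CaH and 2 of 4 in QSi5, and 1 of 4 macrophage markers was lower in each. Markers called higher numbered 4 of 4 for B and plasma cells in QSi5 (summed levels of 25.4 to 34.3 against 18.8 to 22.7), while limma called 0 of 4 in CBA/CaH (0 at an unadjusted p under 0.05), and 4 of 6 for T and NK cells in QSi5 (37.2 to 41.8 against 33.5 to 36.6) and 2 of 6 in CBA/CaH. Relative to their mean over all arrays, the B and plasma cell markers were at 2.83 on lactation QSi5 array 2. They were at 0.08 and 0.17 on the other lactation QSi5 arrays and at -0.90 to -0.15 in pregnancy QSi5. Brown adipocyte markers had 1 higher and 3 lower of 6 in CBA/CaH and 2 higher in QSi5. The part of these cells in the results was not tested, and in bulk tissue fewer cells of a type and less RNA per cell cannot be told apart. In all, 7 arrays stood apart by brown fat, muscle or B cell markers or by the Gapdh 3' minus 5' control value. Pregnancy QSi5 array 4 had a Gapdh value of 6.50 and secretory epithelium markers at -1.56 relative to their mean over all arrays.

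The first comparison asked how the synthetase genes differed between mid-pregnancy and established lactation within each strain. On the deposited scale the mitochondrial set was lower at lactation, with 10 of 16 genes called lower and 0 higher in CBA/CaH and 10 lower and 1 higher in QSi5. The cytosolic set had 9 of 19 genes called lower in CBA/CaH and 11 of 19 in QSi5, with 0 higher, but this direction did not hold when the arrays were put on 1 distribution. Quantile normalization gave 5 cytosolic genes higher and 4 lower in CBA/CaH and 4 higher and 5 lower in QSi5, and cyclic loess gave the same counts. The mitochondrial set had 8 lower and 1 higher in CBA/CaH under both, and in QSi5 7 or 8 lower and 1 higher. With the mean of all probe sets of a gene, 7 mitochondrial genes were lower in each strain. The median difference of the set was then -0.32 in CBA/CaH and -0.25 in QSi5. Shares of all genes called after rescaling are not given here or below, so rescaled counts are not set beside a background. A gene was called at an adjusted p under 0.05 in limma, with Benjamini-Hochberg adjustment over all 45037 probe sets tested.

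Among all genes, 29.5% were called lower and 30.4% higher in CBA/CaH, and 32.7% lower and 33.0% higher in QSi5. The median difference was -0.80 and -0.93 (CBA/CaH and QSi5) for mitochondrial genes, -0.33 and -0.66 for cytosolic genes, and 0.05 and 0.04 over all genes. Background differed with level. Of the 3705 genes with a mean of 8 or more, 51.1% and 54.2% were called lower, with medians of -0.57 and -0.64. The 19 synthetase genes in this range, 17 of them cytosolic, had 10 and 12 called lower and medians of -0.47 and -0.66, which is close to that background. Of the 9199 genes with a mean from 5 to 8, 34.8% and 38.8% were called lower, with medians of -0.15 and -0.20. The 15 synthetase genes there, 13 of them mitochondrial, had 9 called lower in each strain and medians of -0.96 and -1.11. The limits of 5 and 8 were chosen after the values were seen, and no test was made of these shares.

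**Figure D1:**
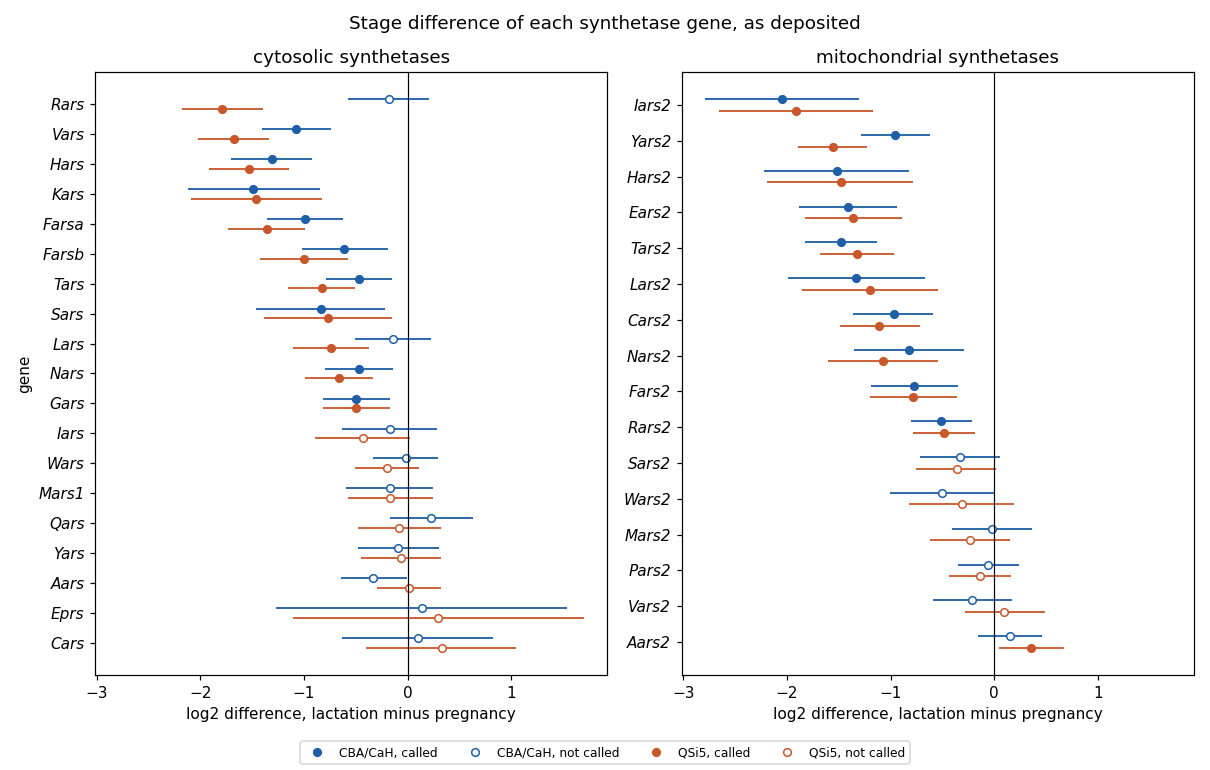
Log2 difference between lactation and pregnancy (horizontal axis) for each cytosolic and mitochondrial synthetase gene (vertical axis) in CBA/CaH and QSi5 on the deposited scale, with 95% intervals as lines and filled points for genes called at an adjusted p under 0.05. Called genes lie below 0 apart from Aars2 in QSi5, and Rars is the gene whose strains lie farthest apart; under quantile normalization the cytosolic set splits into 5 higher and 4 lower in CBA/CaH.

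**Figure D2:**
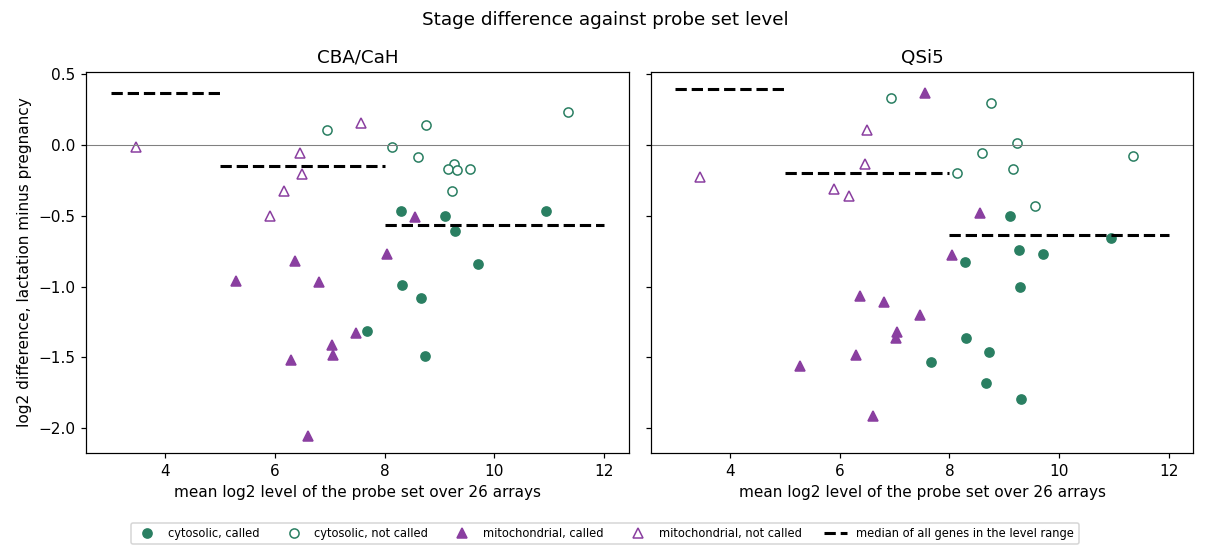
Log2 stage difference (vertical axis) against the mean log2 level of the gene's probe set over 26 arrays (horizontal axis), with circles for cytosolic and triangles for mitochondrial genes and dashed lines for the median of all genes in 3 ranges of level. Cytosolic genes scatter around the dashed line of bright genes (-0.57 and -0.64), while most called mitochondrial genes lie well under theirs (-0.15 and -0.20); quantile normalization moves the cytosolic median to 0.34 and 0.02.

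Among the mitochondrial genes, Iars2, Hars2, Tars2 and Yars2 were called lower in both strains under every alternative run (20 per strain). Iars2, which charges mitochondrial isoleucine tRNA, was at 7.39, 7.67, 6.71, 7.42 and 7.64 on the arrays of pregnant CBA/CaH mice and at 5.63, 5.91 and 4.42 on those of lactating CBA/CaH mice. Iars2 values in QSi5 were 7.82, 7.75, 7.30, 6.46 and 7.84 at pregnancy and 5.24, 5.50 and 5.82 at lactation. All 3 lactation arrays of each strain lay below every pregnancy array of that strain. The difference was -2.05 (SE 0.35, adjusted p = 0.000241) in CBA/CaH and -1.91 (SE 0.35, adjusted p = 0.00031) in QSi5, a 4.13-fold and a 3.77-fold fall. Hars2, the histidine enzyme of mitochondria, was at 6.79, 7.26, 6.69, 7.54 and 7.10 on the arrays of pregnant CBA/CaH mice and at 5.66, 5.73 and 5.29 on those of lactating CBA/CaH mice. Hars2 values in QSi5 were 7.25, 7.17, 7.15, 6.12 and 8.17 at pregnancy and 5.59, 6.10 and 5.37 at lactation. The stages did not overlap in either strain, although pregnancy QSi5 spread widely, from 6.12 on array 4 to 8.17 on array 5. Hars2 differed by -1.52 (SE 0.33, adjusted p = 0.00148) in CBA/CaH and -1.48 (SE 0.33, adjusted p = 0.00139) in QSi5. A second probe set of Hars2 was lower as well, by -0.76 and -0.92 (log2). Tars2, the mitochondrial threonine enzyme, was at 7.53, 7.86, 7.43, 7.83 and 7.92 on the arrays of pregnant CBA/CaH mice and at 5.94, 6.40 and 6.35 on those of lactating CBA/CaH mice. Tars2 values in QSi5 were 7.80, 7.83, 7.80, 7.27 and 7.47 at pregnancy and 6.36, 6.16 and 6.42 at lactation. Stages were again apart in both strains, with lactation values of 6.42 or less. The Tars2 difference was -1.48 (SE 0.17, adjusted p = 5.86e-06) and -1.32 (SE 0.17, adjusted p = 1.13e-05). Yars2, which charges tyrosine tRNA in mitochondria, was at 5.62, 6.27, 5.94, 5.81 and 5.86 on the arrays of pregnant CBA/CaH mice and at 5.09, 4.91 and 4.83 on those of lactating CBA/CaH mice. Yars2 values in QSi5 were 6.38, 6.26, 6.0, 6.25 and 6.33 at pregnancy and 4.41, 4.64 and 5.00 at lactation. No lactation array reached the lowest pregnancy array of its strain. Yars2 differed by -0.96 (SE 0.16, adjusted p = 0.000166) in CBA/CaH and by -1.56 (SE 0.16, adjusted p = 1.39e-06) in QSi5.

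The other mitochondrial genes called lower in both strains were Ears2, Lars2, Cars2, Nars2, Fars2 and Rars2, with differences from -1.41 (Ears2) to -0.51 (Rars2) in CBA/CaH and from -1.36 to -0.48 in QSi5. Probe sets of the same gene disagreed for several of them. Over all members, 37 other probe sets were measured. Of these, 6 in CBA/CaH and 7 in QSi5 were called opposite to the chosen probe set, and 6 in each strain in the same direction. Not all of the opposite ones in QSi5 are named here. Ears2, the glutamate enzyme, was lower on its chosen probe set, but its other probe sets included a pair called higher (0.68 and 0.91 in CBA/CaH, 0.70 and 0.85 in QSi5). Cars2, the cysteine enzyme, had another probe set called higher by 0.65 and 0.76, and Lars2, the leucine enzyme, one called higher by 0.58 and 0.61. With the mean of all probe sets of a gene, Ears2, Cars2 and Lars2 were called in neither strain, and Ears2 was at 0.04 and 0.03. Fars2, the phenylalanine enzyme of mitochondria, was at 8.18, 8.30, 8.21, 8.77 and 8.50 on the arrays of pregnant CBA/CaH mice and at 7.59, 7.60 and 7.66 on those of lactating CBA/CaH mice. Fars2 values in QSi5 were 8.63, 8.56, 8.73, 7.93 and 8.10 at pregnancy and 7.86, 7.26 and 7.71 at lactation. The stages were apart in both strains, by -0.77 (SE 0.20, adjusted p = 0.00431) and -0.78 (SE 0.20, adjusted p = 0.00328). Rars2, the arginine enzyme, was at 8.49, 8.84, 8.69, 8.67 and 9.10 on the arrays of pregnant CBA/CaH mice and at 8.17, 8.34 and 8.24 on those of lactating CBA/CaH mice. Rars2 values in QSi5 were 8.85, 8.68, 8.83, 8.52 and 9.02 at pregnancy and 8.35, 8.25 and 8.29 at lactation. The difference was -0.51 (SE 0.14, adjusted p = 0.00709) and -0.48 (SE 0.14, adjusted p = 0.00839), but quantile normalization turned Rars2 to 0.15 and 0.30 and took the call from Fars2 (-0.14 and -0.06). Nars2, which charges asparagine tRNA, was at 6.17, 6.95, 5.87, 6.80 and 6.29 on the arrays of pregnant CBA/CaH mice and at 5.59, 5.90 and 5.29 on those of lactating CBA/CaH mice. Nars2 values in QSi5 were 6.91, 6.96, 6.81, 6.14 and 7.12 at pregnancy and 5.58, 5.94 and 5.64 at lactation. Stages overlapped in CBA/CaH and not in QSi5, with differences of -0.82 (SE 0.25, adjusted p = 0.0126) and -1.07 (SE 0.25, adjusted p = 0.00202).  In CBA/CaH the Nars2 call was lost with the mean of its probe sets, at -0.32 (adjusted p = 0.0679), and without lactation array 3, at -0.67 (adjusted p = 0.0724). The Lars2 call in QSi5 was also lost under quantile normalization, at -0.64 (adjusted p = 0.062).

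The remaining 6 mitochondrial genes were not called lower in either strain: Aars2, Mars2, Pars2, Sars2, Vars2 and Wars2. Aars2, the alanine enzyme, was at 7.32, 7.23, 7.70, 7.29 and 7.86 on the arrays of pregnant CBA/CaH mice and at 7.42, 7.71 and 7.74 on those of lactating CBA/CaH mice. Aars2 values in QSi5 were 7.38, 7.19, 7.32, 7.34 and 7.46 at pregnancy and 7.66, 7.68 and 7.74 at lactation. Aars2 was the member called higher in QSi5, by 0.36 (SE 0.15, adjusted p = 0.0459), and in CBA/CaH its difference was 0.15 (SE 0.15, adjusted p = 0.408). Its call in QSi5 was lost in 11 of 20 alternatives, and with equal array medians the difference was 0.13. Quantile normalization gave 0.72 in CBA/CaH, called higher. Mars2, the methionine enzyme, had the lowest probe set mean of the mitochondrial set, 3.46, and its group means ran from 3.25 to 3.49 in the parental groups. Rars2 had the highest probe set mean of that set, 8.55. Levels of different probe sets are not comparable, and these means only place each gene on the scale.

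Of the cytosolic genes, Kars, Hars and Vars in both strains and Rars in QSi5 were called lower under every alternative run, rescaled arrays included. Kars, the lysine enzyme and a member of the multi-synthetase complex, was at 9.01, 9.38, 9.03, 9.75 and 8.91 on the arrays of pregnant CBA/CaH mice and at 7.86, 7.78 and 7.54 on those of lactating CBA/CaH mice. Kars values in QSi5 were 9.78, 9.79, 9.70, 8.27 and 9.44 at pregnancy and 8.0, 7.60 and 8.22 at lactation. The stages did not overlap in CBA/CaH, nor in QSi5, where array 4 of pregnancy (8.27) lay closest to lactation (8.22 at most). Kars fell 2.80-fold, with a difference of -1.49 (SE 0.30, adjusted p = 0.000817) in CBA/CaH, and 2.75-fold, -1.46 (SE 0.30, adjusted p = 0.000728), in QSi5. Hars, the cytosolic histidine enzyme, was at 8.38, 8.63, 8.16, 8.17 and 8.58 on the arrays of pregnant CBA/CaH mice and at 7.02, 6.99 and 7.21 on those of lactating CBA/CaH mice. Hars values in QSi5 were 8.18, 8.57, 8.20, 8.26 and 7.90 at pregnancy and 6.55, 6.37 and 7.15 at lactation. Pregnancy and lactation were apart in both strains. Hars differed by -1.31 (SE 0.18, adjusted p = 4.43e-05) and -1.53 (SE 0.18, adjusted p = 7.33e-06), and its second probe set by -2.28 and -2.49. Hars and Hars2 are neighbouring genes in RefSeq. Vars, which charges valine tRNA, was at 9.65, 10.00, 9.47, 9.83 and 9.40 on the arrays of pregnant CBA/CaH mice and at 8.75, 8.62 and 8.41 on those of lactating CBA/CaH mice. Vars values in QSi5 were 8.84, 8.92, 8.63, 8.40 and 8.67 at pregnancy and 7.22, 6.98 and 6.85 at lactation. At neither stage did the strains overlap, and within a strain all lactation values lay below all pregnancy values. The Vars difference between stages was -1.08 (SE 0.16, adjusted p = 6.92e-05) in CBA/CaH and -1.68 (SE 0.16, adjusted p = 7.85e-07) in QSi5.

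Other cytosolic genes were lower on the deposited scale by smaller amounts, and these calls moved with the scaling. Nars, the asparagine enzyme, was at 10.97, 11.48, 10.97, 11.26 and 11.01 on the arrays of pregnant CBA/CaH mice and at 10.59, 10.72 and 10.72 on those of lactating CBA/CaH mice. Nars values in QSi5 were 11.18, 11.08, 11.10, 11.33 and 11.33 at pregnancy and 10.53, 10.22 and 10.89 at lactation. On the deposited scale the difference was -0.47 (SE 0.15, adjusted p = 0.0198) and -0.66 (SE 0.15, adjusted p = 0.00207), and under quantile normalization the difference was 0.03 and -0.09, not called. Tars, the threonine enzyme, with the response element core in its promoter, was at 8.52, 8.55, 8.33, 8.61 and 8.44 on the arrays of pregnant CBA/CaH mice and at 7.76, 8.07 and 8.24 on those of lactating CBA/CaH mice. Tars values in QSi5 were 8.83, 8.75, 8.72, 8.16 and 8.64 at pregnancy and 7.72, 7.76 and 7.88 at lactation. Tars differed by -0.47 (SE 0.15, adjusted p = 0.0169) and -0.83 (SE 0.15, adjusted p = 0.000279) as deposited, and by 0.19 and -0.08 under quantile normalization. Gars, the glycine enzyme, which also holds that core, was at 9.33, 9.46, 9.17, 9.62 and 9.60 on the arrays of pregnant CBA/CaH mice and at 9.23, 8.93 and 8.66 on those of lactating CBA/CaH mice. Gars values in QSi5 were 9.53, 9.45, 9.45, 9.42 and 9.33 at pregnancy and 8.90, 8.69 and 9.24 at lactation. The stages overlapped in CBA/CaH, the difference was -0.50 (SE 0.15, adjusted p = 0.0132) and -0.50 (SE 0.15, adjusted p = 0.0117), and quantile normalization turned it to 0.16 and 0.27. Lars, the leucine enzyme of the complex, was at 9.07, 9.92, 8.97, 9.43 and 9.08 on the arrays of pregnant CBA/CaH mice and at 9.11, 9.09 and 9.28 on those of lactating CBA/CaH mice. Lars values in QSi5 were 9.58, 9.48, 9.54, 9.69 and 9.60 at pregnancy and 8.78, 8.79 and 8.95 at lactation. Lars was called in QSi5, at -0.74 (SE 0.17, adjusted p = 0.00207), and not in CBA/CaH, at -0.14 (SE 0.17, adjusted p = 0.522), and under quantile normalization it was called higher in CBA/CaH, by 0.52, and was at 0.02 in QSi5. Sars, the serine enzyme, differed by -0.84 (SE 0.29, adjusted p = 0.0254) and -0.77 (SE 0.29, adjusted p = 0.033), and a second probe set by -1.52 and -1.91. The call of Sars changed in 6 of 20 alternatives in CBA/CaH and in 10 of 20 in QSi5. Among these was quantile normalization, where it was lost (-0.18 and -0.04). Farsa and Farsb encode the subunits of the phenylalanine enzyme, and both were lower in both strains as deposited, with differences of -0.99 and -1.36 for Farsa and -0.61 and -1.0 for Farsb. Farsb was at 0.05 and -0.24 under quantile normalization. A pair of other Farsa probe sets was called higher, by 1.5 and 0.76 in CBA/CaH and 1.07 and 0.88 in QSi5, and with the mean of its probe sets Farsa turned to 0.40 in CBA/CaH, called higher (adjusted p = 0.00717), and to 0.21 in QSi5, not called (adjusted p = 0.112).

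Aars, Cars, Eprs, Iars, Mars1, Qars, Wars and Yars were called in neither strain on the deposited scale. Their differences ran from -0.33 (Aars) to 0.23 (Qars) in CBA/CaH and from -0.43 (Iars) to 0.33 (Cars) in QSi5. Once the arrays shared 1 distribution by quantile normalization, Yars, the tyrosine enzyme, was called higher in both strains (0.57 and 0.71), as was Wars, the tryptophan enzyme (0.62 and 0.56). Qars, the glutamine enzyme, with Lars and Rars were higher in CBA/CaH (0.64, 0.52 and 0.47), and Aars, the alanine enzyme, and Mars1, the methionine enzyme, in QSi5 (0.77 and 0.60). Among the genes shown with the response element core, the deposited differences were thus -0.33 and 0.01 for Aars, -0.50 and -0.50 for Gars, -0.17 and -0.43 for Iars, -0.47 and -0.83 for Tars and -0.09 and -0.06 for Yars. Qars had the highest probe set mean of the cytosolic set (11.35), and its values were 11.28, 11.90, 11.21, 11.18 and 10.83 in pregnant and 11.57, 11.31 and 11.67 in lactating CBA/CaH mice. Qars values in QSi5 were 11.48, 11.37, 11.24, 11.24 and 11.61 at pregnancy and 11.36, 11.11 and 11.46 at lactation, and the stages overlapped in both strains. A second Qars probe set was called lower, by -0.64 and -1.06. Cars, the cysteine enzyme, had the lowest mean (6.94). Eprs, which carries the glutamate and proline activities in 1 protein, had a standard error of 0.66, and on the pregnancy QSi5 arrays it read 5.58 for array 5 while the others read 9.18 to 9.64. A second Eprs probe set was called lower, by -0.52 and -0.95, and another higher, by 0.57 and 0.58.

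**Figure D3:**
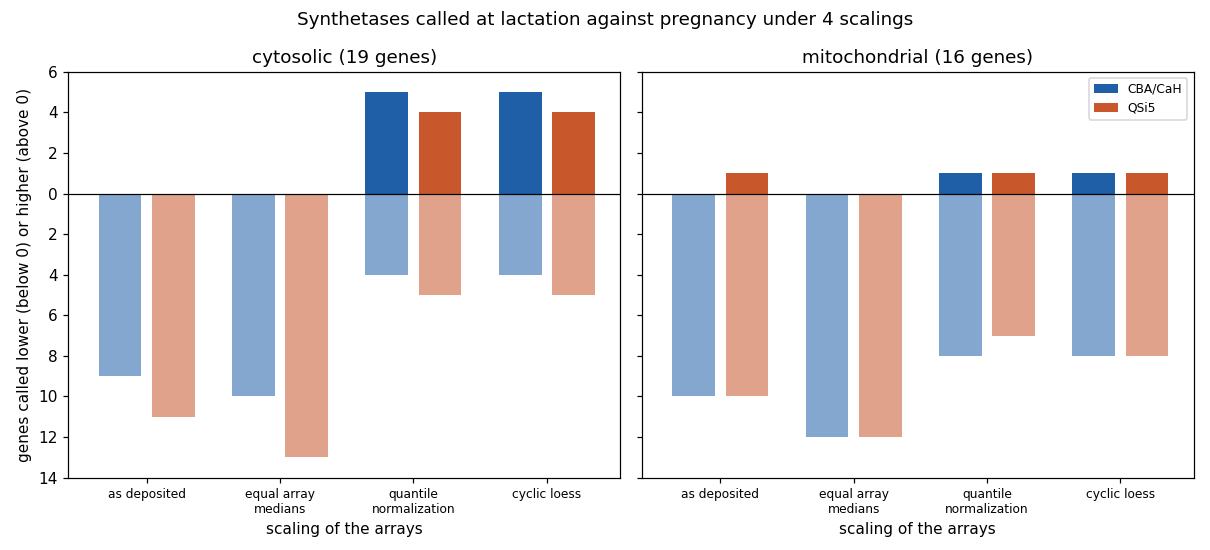
Number of synthetase genes called lower (bars below 0) or higher (bars above 0) at lactation against pregnancy, for CBA/CaH and QSi5, with the arrays as deposited, at equal medians, after quantile normalization and after cyclic loess (horizontal axis). The cytosolic bars change from 0 higher to 5 (CBA/CaH) and 4 (QSi5) higher, while 7 to 12 of the 16 mitochondrial genes are called lower and 0 or 1 higher under each scaling.

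In both strains 19 of 35 genes were lower, against 27.0% of all genes, and 13 were called in neither. Among genes with a mean of 8 or more, 10 of 19 synthetase genes were lower in both strains, against 47.2% of all such genes, and with a mean from 5 to 8 it was 9 of 15, against 31.9%. By class, 7 of 18 class I genes and 12 of 16 class II genes were lower in both strains, and Eprs, which holds a domain of each class, was in neither. Of the 7 genes of the multi-synthetase complex, Kars was lower in both strains on the deposited scale, and quantile normalization gave 3 higher and 1 lower in CBA/CaH and 1 higher and 2 lower in QSi5. Under quantile normalization 5 class I genes were higher and 6 lower for CBA/CaH (3 and 6 for QSi5), and 1 class II gene was higher and 6 lower (2 and 6 for QSi5). The complex members had a median of -0.17 in CBA/CaH and -0.43 in QSi5, against -0.48 and -0.72 for the other 12 cytosolic genes. No test was made of these differences between groups of genes. Cytosolic and mitochondrial enzymes for the same amino acid were compared in 17 pairs on the deposited scale. Fars2 was paired with both Farsa and Farsb, and Eprs with both Ears2 and Pars2, so some genes count more than once. Both phenylalanine pairs are among those with both genes lower in each strain. No share over all genes stands beside these counts. CBA/CaH had 5 pairs with both genes lower and QSi5 had 7, while the mitochondrial gene alone was lower in 6 and 4. The isoleucine pair was far apart, with Iars2 at -2.05 and -1.91 and Iars at -0.17 and -0.43. The tyrosine pair had Yars2 at -0.96 and -1.56 and Yars at -0.09 and -0.06. For valine the cytosolic gene alone was lower, with differences of -1.08 and -1.68 for Vars against -0.21 and 0.10 for Vars2. For serine it was the same, with Sars2 at -0.33 and -0.36.

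The second comparison asked which synthetase genes differed between QSi5 and CBA/CaH at the same stage. At pregnancy 1 of 35 genes was called, against 1.22% of all genes, and at lactation 2 of 35, against 0.346%. The gene called at both stages was Vars, and the second at lactation was Rars, and both were lower in QSi5. These calls held under every alternative run, 22 at pregnancy and 18 at lactation. Vars in pregnant mice was at 8.84, 8.92, 8.63, 8.40 and 8.67 in QSi5 and 9.65, 10.00, 9.47, 9.83 and 9.40 in CBA/CaH, without overlap. The difference was -0.98 (SE 0.14, adjusted p = 0.000993), 1.97-fold lower in QSi5. At lactation Vars was at 7.22, 6.98 and 6.85 in QSi5 and 8.75, 8.62 and 8.41 in CBA/CaH, again without overlap, and the difference was -1.58 (SE 0.18, adjusted p = 0.000259), 2.99-fold lower in QSi5. In RefSeq the gene next to Vars on one side is D17H6S56E-5, which differed by -4.45 at pregnancy (adjusted p = 1.19e-08) and -5.25 at lactation (adjusted p = 1.69e-07). The other 7 of 8 nearest measured neighbours, Hspa1a, Hspa1l, Lsm2, Vwa7, Sapcd1, Msh5 and Clic1, were not called at either stage. These neighbours were looked up after the Vars values were seen. The second gene, Rars, the arginine enzyme of the multi-synthetase complex, was at 7.91, 7.88 and 8.38 in lactating QSi5 mice and 9.41, 9.40 and 9.48 in lactating CBA/CaH mice. The strains did not overlap and differed by -1.38 (SE 0.21, adjusted p = 0.00479), 2.60-fold lower in QSi5. In pregnancy Rars was at 10.13, 10.08, 9.74, 9.67 and 9.60 in QSi5 and 9.45, 9.66, 9.40, 10.15 and 9.43 in CBA/CaH, which overlapped, and the difference was 0.23 (SE 0.16, adjusted p = 0.789). None of 8 Rars neighbours was called at either stage. Vars and Rars each have 1 probe set, so no second probe set bears on these values.

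The third comparison tested whether the stage difference itself differed between strains, as an interaction term. Rars was the 1 gene of 35 called, against 0.0989% of all genes. Its stage difference was -1.79 (SE 0.18, adjusted p = 1.74e-06) in QSi5 and -0.18 (SE 0.18, adjusted p = 0.414) in CBA/CaH, and the interaction was -1.61 (SE 0.26, adjusted p = 0.0221). Leaving out the arrays set apart by their markers took the adjusted p to 0.133, so the call was lost, as it was with a replicate block (adjusted p = 0.0851), with estimates of -1.64 and -1.61. It was also lost when any 1 of 7 arrays was left out: pregnancy CBA/CaH 1, pregnancy QSi5 2, lactation CBA/CaH 1, 2 or 3, or lactation QSi5 1 or 2 (adjusted p = 0.0527 to 0.0952). The estimate stayed between -1.77 and -1.52 in all of the fits that left out 1 array. For Vars, Yars2 and Lars the interaction was -0.60 in each case and did not pass (adjusted p = 0.821, 0.816 and 0.871).

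**Figure D4:**
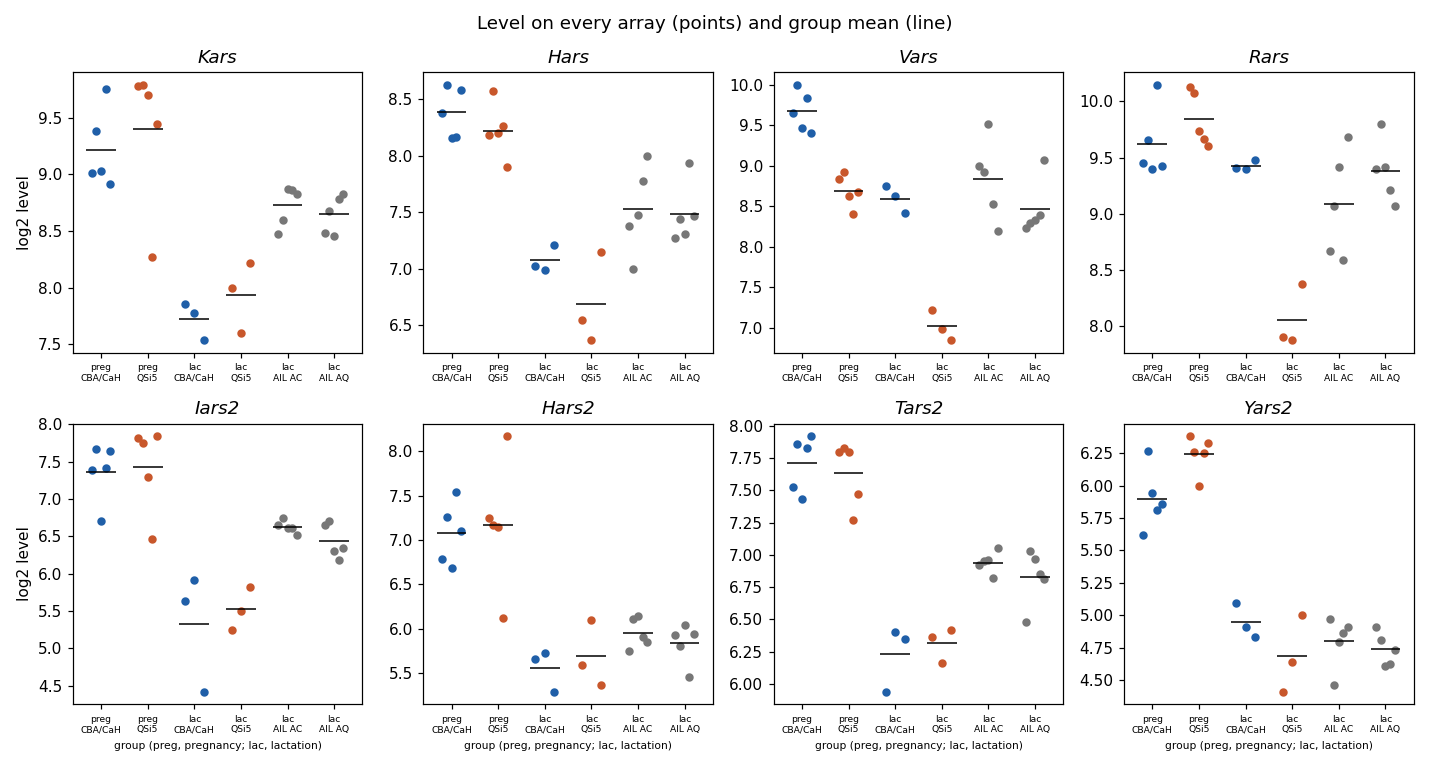
Log2 level (vertical axis) on every array (points) and the group mean (line) in the 6 groups (horizontal axis) for 4 cytosolic and 4 mitochondrial synthetase genes. Rars is low in lactating QSi5 mice alone (7.88 to 8.38), Vars is lower in QSi5 at both stages, and the AIL arrays of Iars2 (6.18 to 6.74) lie between the lactation and most pregnancy arrays of the parental strains.

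The fourth comparison set the 10 AIL arrays against each parental strain at lactation. Against CBA/CaH, 12 synthetase genes were higher and 1 lower, where 18.0% of all genes were higher and 16.2% lower. Against QSi5, 15 were higher and 2 lower, where 19.4% were higher and 18.5% lower. These comparisons share the AIL arrays. Among genes with a mean of 8 or more, 40.9% and 43.0% were higher in the AIL, and of the 19 synthetase genes there 5 and 9 were. Among genes with a mean from 5 to 8 it was 18.2% and 20.0%, and of 15 synthetase genes 7 and 6. After quantile normalization the split was 8 higher and 7 lower against CBA/CaH and 11 and 7 against QSi5. The Gapdh 3' minus 5' value was 0.54 to 0.80 on the AIL arrays and 1.12 to 2.02 on the parental lactation arrays, without overlap, and with it as a covariate 0 synthetase genes were called by limma in either comparison (4 and 7 had an unadjusted p under 0.05). The cross and this difference between sets of arrays cannot be told apart.

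Iars2 in the AIL ranged from 6.18 to 6.74 with a median of 6.61. The difference was 1.21 (SE 0.21, adjusted p = 0.00035) against CBA/CaH and 1.01 (SE 0.21, adjusted p = 0.0014) against QSi5, and with the Gapdh covariate the estimates were -0.11 and -0.28. A second Iars2 probe set was called lower in the AIL, by -0.28 and -0.29. Cars in the AIL ranged from 7.37 to 7.94 with a median of 7.58, above all 16 parental arrays, which reached 7.07 at most. Its parental lactation values were 7.07, 6.65 and 6.17 in CBA/CaH and 6.68, 6.67 and 6.72 in QSi5, and the differences were 0.98 (SE 0.14, adjusted p = 6.89e-05) and 0.92 (SE 0.14, adjusted p = 0.000117). Kars, at 8.46 to 8.87 with a median of 8.73, and Nars2, at 6.27 to 6.84 with a median of 6.54, were also above all 6 parental lactation arrays. Kars differed by 0.96 (SE 0.13, adjusted p = 3.71e-05) and 0.75 (SE 0.13, adjusted p = 0.000348), and Nars2 by 0.96 (SE 0.13, adjusted p = 3.06e-05) and 0.84 (SE 0.13, adjusted p = 0.000108). A second Nars2 probe set was called lower against QSi5, by -0.31. Farsa ranged from 8.07 to 8.90 with a median of 8.40 and differed by 0.85 from CBA/CaH and 0.93 from QSi5, but a pair of its other probe sets was called lower, by -0.48 and -0.93 against CBA/CaH and by -0.67 and -0.77 against QSi5. The mean over its probe sets differed by -0.10 in both comparisons, not called. The genes that separated the parental strains differed from QSi5 and not from CBA/CaH. Vars in the AIL ranged from 8.19 to 9.51 with a median of 8.46, a difference of 1.63 (SE 0.21, adjusted p = 1.72e-05) from QSi5 and 0.05 (SE 0.21, adjusted p = 0.875) from CBA/CaH. Rars ranged from 8.59 to 9.80 with a median of 9.30, a difference of 1.17 (SE 0.19, adjusted p = 0.000193) from QSi5 and -0.20 (SE 0.19, adjusted p = 0.455) from CBA/CaH. Eprs was lower in the AIL in both comparisons at -0.69 (SE 0.15, adjusted p = 0.0019) and -0.45 (SE 0.15, adjusted p = 0.0258), and Vars2 was lower against QSi5, at -0.43 (SE 0.13, adjusted p = 0.0138).

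Between AQ and AC mice 0 of 35 synthetase genes was called in limma, 0 had an unadjusted p under 0.05, and 0 were called with array weights. Over all genes 0 were called as well. The differences ran from -0.37 to 0.30.

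**Figure D5:**
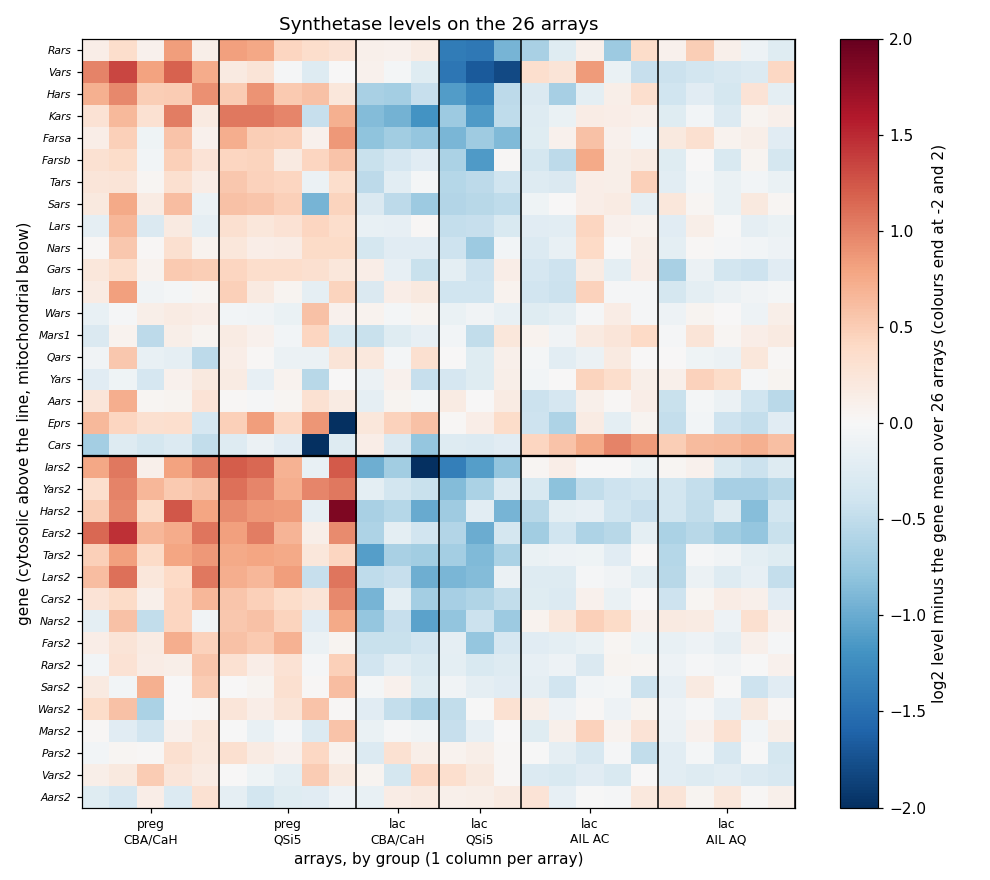
Log2 level of each of the 35 synthetase genes (rows) on each of the 26 arrays (columns, by group), as the difference from the gene's mean over all arrays, with cytosolic genes above the line and mitochondrial genes below. Red pregnancy and blue parental lactation columns are clearest for mitochondrial genes on this deposited scale (under quantile normalization the cytosolic set has 5 higher and 4 lower in CBA/CaH), Cars is red in the AIL (7.37 to 7.94), and pregnancy QSi5 array 4 stands out by low values of Cars (4.90) and Sars (8.78).

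Other genes of tRNA charging and translation were counted from lists, with stage differences given for CBA/CaH and then QSi5. Over all genes the shares were 30.4% and 33.0% higher and 29.5% and 32.7% lower. Of 13 scaffold proteins and charging-related enzymes, CBA/CaH had 1 higher and 5 lower as deposited and QSi5 had 1 and 4, against 4 higher and 1 lower and 3 higher and 2 lower after quantile normalization. Aimp1, a scaffold of the multi-synthetase complex, was at -0.90 (adjusted p = 0.000517) and -1.39 (adjusted p = 8.93e-06), Dtd1, which removes D-amino acids from tRNA, at -0.89 (adjusted p = 0.000351) and -0.97 (adjusted p = 0.000121), and Eef1e1, another scaffold, at 0.89 (adjusted p = 0.0306) and 1.03 (adjusted p = 0.0129). Pstk, which acts on selenocysteine tRNA, did not pass, at 0.07 (adjusted p = 0.734) and 0.12 (adjusted p = 0.578). A list of 25 measured mitochondrial genes held translation factors and ribosomal proteins, together with Lrpprc, Tfam, Polrmt and Twnk, which are neither. Of these 25, 19 and 20 were lower and 0 higher, with medians of -0.81 and -0.88. Lrpprc, Tfam and Twnk count among the lower genes in both strains, and Polrmt in QSi5. Quantile normalization left 13 and 11 lower and 1 higher. Mrps9, a protein of the small mitochondrial ribosomal subunit, was at -2.41 (adjusted p = 1.25e-06) and -2.34 (adjusted p = 1.05e-06), Tfam, which packages mitochondrial DNA, at -2.40 (adjusted p = 8.24e-06) and -2.16 (adjusted p = 1.46e-05), and Lrpprc, which stabilises mitochondrial messages, at -1.68 (adjusted p = 3.66e-06) and -2.12 (adjusted p = 2.54e-07). Mrpl1, of the large subunit, did not pass, at 0.10 (adjusted p = 0.767) and -0.06 (adjusted p = 0.851). Of 23 cytosolic initiation and elongation factors 11 and 13 were lower and 0 higher as deposited, but 4 and 8 lower and 5 and 5 higher after quantile normalization. Most of these factors had parental group means above 8. Among all genes with a mean of 8 or more, 51.1% and 54.2% were lower as deposited, so these counts are close to that background. Eif2s3x, a subunit of initiation factor eIF2, was at -1.61 (adjusted p = 9.77e-05) and -1.81 (adjusted p = 2.51e-05), Eif4a1, an RNA helicase, at -1.02 (adjusted p = 0.00106) and -1.71 (adjusted p = 1.01e-05), and Eif3d, of initiation factor eIF3, at -1.27 (adjusted p = 0.00016) and -1.66 (adjusted p = 1.11e-05). Eif2s2, another eIF2 subunit, did not pass, at 0.12 (adjusted p = 0.642) and 0.32 (adjusted p = 0.195). The 26 measured genes of the amino acid response were ATF4, its targets and the kinase gene Eif2ak4, which is not a target and was lower in both strains. The list had 10 called higher and 9 lower for CBA/CaH, and 8 and 6 for QSi5, so neither direction stood out beside the shares over all genes. Quantile normalization gave 13 and 4, and 16 and 3, and equal array medians 5 and 11, and 6 and 9. Nupr1, a stress-induced transcriptional regulator, was at 4.05 (adjusted p = 4.25e-08) and 4.88 (adjusted p = 4.30e-09), and Chac1, which degrades glutathione, at 3.43 (adjusted p = 1.70e-09) and 2.66 (adjusted p = 8.23e-09). Cebpb, a transcription factor, was at -2.30 (adjusted p = 1.80e-06) and -2.65 (adjusted p = 2.95e-07). Phgdh, of serine synthesis, did not pass, at -0.52 (adjusted p = 0.0774) and 0.13 (adjusted p = 0.648).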

How the data were processed

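The authors deposited log2 expression values of 26 arrays, 45101 probe sets each, which the submitters' processing notes say came from RMA, a method that corrects background, normalizes and summarises probes. The software, the chip definition and whether all arrays were processed together are not given in the sources used here. Values ran from 2.34 to 15.1 and were used as deposited. Gene symbols came from the array's annotation table: 34945 probe sets had 1 symbol, 932 several and 9160 none.

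Group means were modelled in R 4.3.3 with limma 3.58.1 (lmFit and eBayes) for 45037 probe sets without the 64 controls, 1 on the 16 parental arrays (stage, strain, interaction) and 1 on the 16 lactation arrays (AIL). P-values were two-sided, adjusted by Benjamini-Hochberg over all probe sets, and called under 0.05; the code was tested on simulated data. A difference is the first group's mean minus the second's on the log2 scale, and a fold is 2 to its size. The number of arrays limits precision. The closing section gives the alternatives. Replicate numbers did not pair the arrays by the rule given in the closing section.

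Members and lists were chosen with earlier results of these data known. Per-array values are given for called members at the ends of each stage comparison in each set, up to 4 called members of the other comparisons, and the members of highest and lowest mean in each set; lists give up to 3 called genes and 1 not called. An array stood apart where the median of the skeletal muscle, brown adipocyte, B and plasma cell or T and NK cell markers, or the Gapdh value, lay over 1 log2 unit above its group's median.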

Additional observations from a re-analysis of the deposited data

Results flagged for a closer look

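In 140 combinations of a synthetase gene and a group of 5 arrays, 9 arrays lay far from the rest of their group, where 7 are expected, since chance gives about 1 in 20. Pregnancy QSi5 array 4, which also had the Gapdh 3' minus 5' value of 6.50, gave 5 of them, all low. They were Cars (4.90, against 6.68 to 6.82 on the other arrays), Kars (8.27, against 9.44 to 9.79), Lars2 (7.01, against 8.14 to 8.54), Sars (8.78, against 10.16 to 10.30) and Tars (8.16, against 8.64 to 8.83). The part of this array's RNA in these values was not tested.

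For Eprs, array 5 of pregnant QSi5 mice read 5.58 while the others read 9.18 to 9.64. Iars was at 10.38 on pregnancy CBA/CaH array 2, against 9.50 to 9.73. Among AIL mice, Vars was at 9.07 on AQ array 5, against 8.23 to 8.39, and Vars2 at 6.50 on AC array 5, against 6.20 to 6.28.

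The stage difference of Rars differed between the strains by -1.61 (interaction term of the limma fit across all probe sets, adjusted p = 0.0221). All 3 lactating QSi5 arrays lay below every other array of the parental strains.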

How the results depend on the processing

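Of 25 results for single genes, 533 alternative values kept direction and side of the threshold, 26 lost the call and 3 reversed. The reversals were Iars2 in the AIL with the Gapdh covariate (-0.11 against CBA/CaH and -0.28 against QSi5) and Farsa against QSi5 with the mean of all probe sets (-0.10). Farsa also turned from lower to higher at lactation in CBA/CaH with that mean (0.40). The cause of these changes was not tested.

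Under both quantile normalization and cyclic loess, cytosolic genes called lower numbered 4 in CBA/CaH and 5 in QSi5, and those called higher 5 and 4, and 1 mitochondrial gene was higher in CBA/CaH. The mean of all probe sets gave 2 (CBA/CaH) and 1 (QSi5) cytosolic genes higher, and 7 mitochondrial genes lower in each strain in place of 10. Without the arrays that stood apart, 1 mitochondrial gene was higher in CBA/CaH and 0 in QSi5. The QSi5 count was also 0 with probe sets of mean 5 or more, with trend and robust eBayes and with equal array medians. Leaving out 1 array gave 0 to 1 cytosolic genes higher in CBA/CaH (1 without pregnancy array 2), 0 to 1 mitochondrial genes higher in QSi5 and 0 to 1 genes in the interaction. Without the arrays that stood apart the interaction had 0. AIL calls against CBA/CaH fell to 8 with all 26 arrays in the fit. With the Gapdh covariate they were 0 against each strain, and leaving out 1 array gave 11 to 21 against QSi5 (11 without lactation array 2, 17 with all).

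Replicate numbers did not pair the arrays by the rule that every pair's correlation be over 0.1: same-numbered AC and AQ arrays had 0.01 to 0.32, and those of other groups -0.43 to 0.12. For AC and AQ only the arrays numbered 2 (0.01) were under the limit, and the other pairs had 0.14 to 0.32. The rule therefore cannot show that same-numbered AIL arrays are unrelated. AIL arrays numbered 1 to 3 and those numbered 4 and 5 did not overlap for Fars2 (7.82 to 7.94 against 7.96 to 8.14) and Rars2 (8.26 to 8.52 against 8.54 to 8.64). The share of all genes without overlap in this split is not given, so the separation cannot be called particular to these genes. With AIL arrays 1 to 3 alone, 9 genes were called against CBA/CaH and 13 against QSi5, and with 4 and 5 alone 12 and 14. With the replicate block, 6 cytosolic genes were lower in CBA/CaH in place of 9, the interaction had 0 calls, and the AIL against CBA/CaH had 8 higher and 1 lower. Low signal limits Mars2, whose mean was 3.46.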
